A study of Mus musculus with 14 samples.

Results

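Matrix metalloproteinases (MMPs), the related ADAMTS proteases and ADAMTS-like proteins, and the tissue inhibitors of metalloproteinases (TIMPs) were followed in mouse melanomas during treatment with a BRAF inhibitor. Genes were taken by name: every row of the deposited expression table whose symbol begins with Mmp, Adamts or Timp and a digit, or with Adamtsl. This gave 41 of 18481 rows, namely 19 Mmp, 14 Adamts, 5 Adamtsl and 3 Timp genes. The 36 that were at 1 or more in 2 or more tumours were tested, and 5 were not (Adamts16, Adamts17, Adamts18, Adamtsl2 and Mmp17). The rule for the 41 genes used names only, but it was set with earlier results of these data known. Other genes of these families, such as Timp4, were not analysed here.

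MMPs are zinc-dependent proteases that cut collagens and other proteins outside the cell, and most are secreted as inactive precursors that another protease must open. ADAMTS proteases cut proteoglycans such as versican or remove the ends of procollagens, ADAMTS-like proteins resemble them but lack the catalytic domain, and TIMPs block the active site. In tumours these genes are made by cancer cells and by fibroblasts, macrophages and neutrophils, and several MMP genes are known targets of the AP-1 transcription factors that act downstream of the RAF, MEK and ERK kinases.

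The tumours grew from SMM102, a mouse melanoma cell line, injected subcutaneously. The hosts were female C57BL/6J mice aged 6 to 8 weeks, with more than 1 injection site each. PLX4032 (vemurafenib, a BRAF kinase inhibitor) was injected intraperitoneally, 50 mg/kg each time and 5 times weekly, once tumours measured 150 to 300 mm3. Of 14 tumours, 10 were treated: 2 each were taken at days 3, 6 and 18, and 4 at day 27. The 4 controls were taken 2 each at days 3 and 6. The sample labels name the controls untreated, and the design text names a vehicle. The 4 tumours of day 27 are the left and right tumours of 2 mice, and the columns are not tied to mice. Every p-value that uses day 27 is therefore too small. These 4 tumours also give 3 of the 8 residual degrees of freedom behind all p-values. Days 18 and 27 have no control of their own day, so treatment and time cannot be told apart there. The same animal number stands in a day 6 control label and a day 3 PLX4032 label. SMM102 is 1 cell line, and its genotype is not stated in the labels.

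Values below are the deposited expression values, which the authors' table calls TPM, a unit per transcript length, but whose columns sum to 879385 to 1084401, so the scale is TPM-like. Changes are differences of log2(value + 1) with their standard error (SE) from limma, and a gene is called higher or lower at a Benjamini-Hochberg adjusted p under 0.05 over the 15841 genes tested. Unless stated, a treated day is compared with the 4 controls. Read depth is unknown, and the log2(value + 1) scale understates the change of genes with low values. Tumours of a group had correlations of log2 values of 0.971 to 0.992 over all rows. Of 7 melanocyte markers, 3 were in the table (Mitf, Sox10 and Pmel), with a sum of 3.29 to 11.8 in every tumour, so the melanoma label has little marker expression behind it here.

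At day 3 of PLX4032, 10 of the 36 tested genes were called higher and 7 lower, while 24.9% of all tested genes were called higher and 20.8% lower. The members' median change was 0.23, and that of all genes 0.02. At day 6, 0 were higher and 1 lower (all genes 4.49% and 1.43%), with medians of -0.14 and 0.01. At an unadjusted limma p under 0.05 there were 8 of the 36 members and 3584 of all 15841 tested genes. These shares are nearly equal, so that count says nothing particular about the families. At day 18, 5 were higher and 3 lower (5.42% and 2.5%; medians 0.02 and 0.07). At day 27, 2 were higher and 5 lower (3.58% and 3.09%; medians -0.07 and 0.01). The shares at day 3 lie near those of all genes, so the number of calls there says nothing particular about these families. All 36 are those that passed the filter on low values. Adamts8, counted as higher at day 18 and late, reached 1 only in the day 18 tumours. Mmp1b, counted as higher late, did so only in day 27 tumours 1 and 3. Mmp1a, counted as lower at day 3 and higher late, would not have passed the filter without the late tumours. Mmp8 and Adamtsl1 reached 1 in treated tumours only. With no filter Adamts8 and Mmp1b had the same calls, but the counts that hold any of these genes support nothing on their own.

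In all, 22 of the 36 genes were called on at least 1 treated day and 9 on 2 or more: Adamts2, Adamts14, Adamts15, Adamtsl1, Adamtsl4, Mmp2, Mmp13, Mmp23 and Timp2. The matching shares of all genes were not computed, and day 3 alone called 45.8% of all genes. These counts thus say nothing particular about the families. The late treated tumours (days 18 and 27) against the early ones (days 3 and 6) gave 11 higher and 11 lower (all genes 20.6% and 19.4%; medians -0.18 and 0.01). Day 27 against day 18 gave 2 higher and 9 lower (3.19% and 6.86%; medians -0.07 and -0.06). Control day 6 against control day 3 gave 0 members by limma (0% of all genes), with 6 members and 886 genes at an unadjusted p under 0.05. The effect at day 6 against that at day 3, each with its own day's controls, differed for 1 member upwards and 4 downwards (6.06% and 2.43% of all genes). These comparisons share tumours and are not independent of each other. With the 4 day 27 tumours averaged into 2 mice in each of the 3 possible ways, the day 27 count fell from 7 to 3, 2 and 3, with only Adamtsl4 and Timp2 called in all 3 pairings and Adamts4 in 2. Leaving out either day 3 tumour lowered the day 3 count, tumour 2 the most, and leaving out some of the controls lowered it too. The late against early count fell most without day 18 tumour 2, and it also fell without most of the other tumours. No day 18 call of the main fit was kept without day 18 tumour 1. In a fit on the compared groups alone the day 18 count fell from 8 to 1, which was Adamtsl4. Quantile normalization moved the share of higher calls among all called genes from 54.4% to 39.4% at day 3, from 75.9% to 62.1% at day 6, from 68.4% to 45.9% at day 18 and from 31.7% to 57.8% for day 27 against day 18. Median-of-ratios scaling gave 56.5% at day 18 and 42.4% for day 27 against day 18. Among the members, quantile normalization gave 9 higher of 17 calls at day 3 and 5 of 9 at day 18. It moved the median of all genes at day 3 from 0.02 to -0.14, so rises at day 3 are relative to that scale, and no member's call changed sign in any setting.

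**Figure D1:**
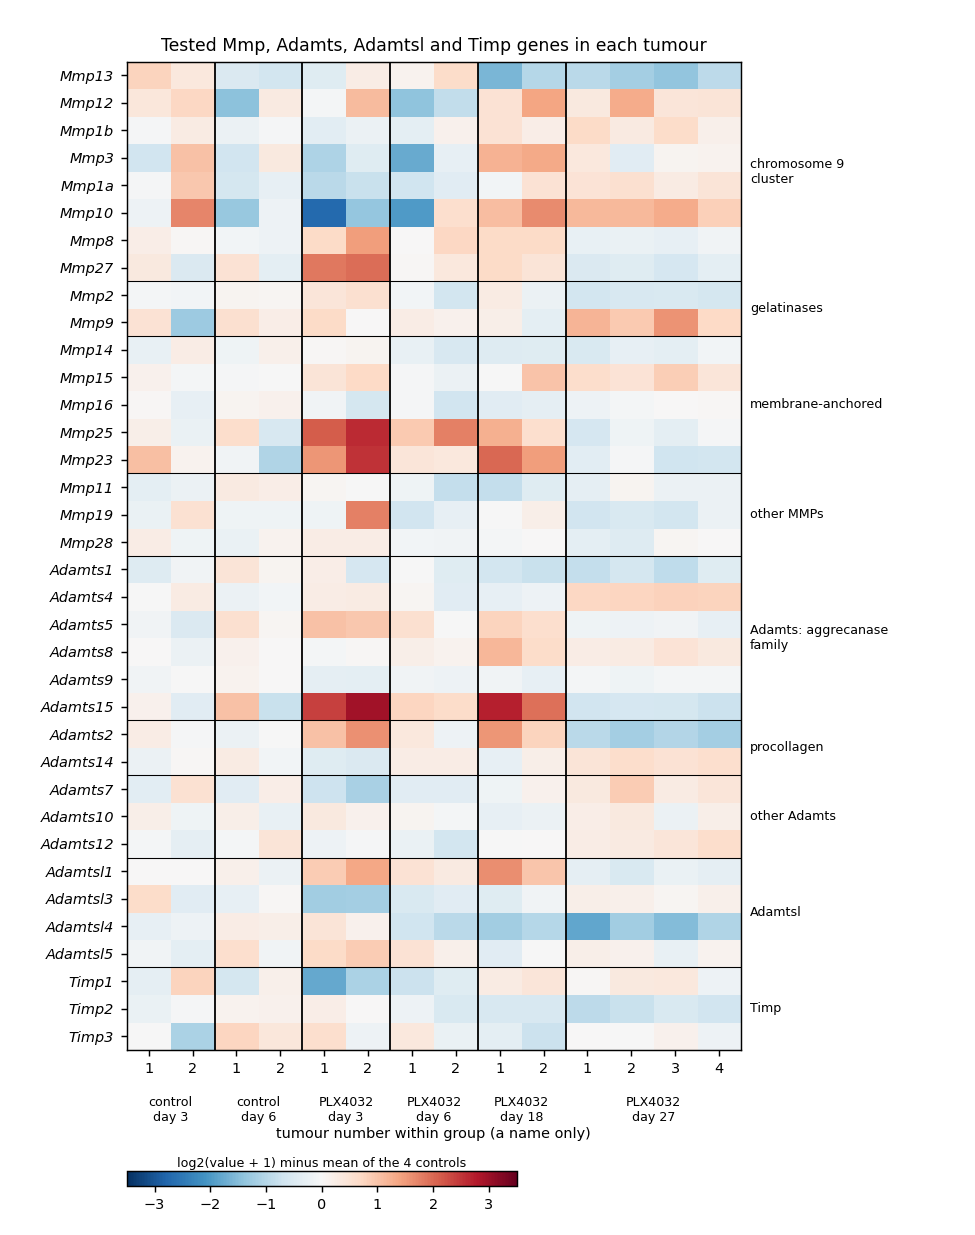
Each row is 1 of the 36 tested genes and each column 1 of the 14 tumours; the colour is log2(value + 1) minus the mean of the 4 controls, so red is higher and blue lower than the controls. Adamts15, Mmp23 and Adamtsl1 are red at days 3 and 18 and not at day 27, while Adamtsl4 is blue from day 6 on.

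Whole tumours were measured, so a change can be fewer cells of a type or less RNA per cell, and these cannot be told apart. Markers of other cells moved with the groups. The sum of 11 fibroblast markers was 3242 to 4116 in the controls, 5357 to 7494 at day 3, 3602 to 4737 at day 6, 5653 to 6875 at day 18 and 2824 to 3265 at day 27. The sum of 14 macrophage and monocyte markers was 996.1 to 2977 in the controls, 10580 to 16610 at day 3, 3619 to 6362 at day 6, 2806 to 4650 at day 18 and 1116 to 2282 at day 27. The fibroblast sum stood above every control at days 3 and 18 and reached below the lowest control at day 27, and the macrophage sum stood highest at day 3. Col1a1, Col1a2 and Col3a1 were the 3 largest terms of the fibroblast sum in every tumour, and not all of its genes moved with it. Pdgfra, a fibroblast surface receptor, was at 135.4 to 263.6 in the controls, 115.6 and 86.1 at day 3 and 97.3 and 92.7 at day 18. Pdgfrb was at 62.3 to 80.4 in the controls, 58.0 and 57.4 at day 3 and 52.9 and 50.7 at day 18. Both receptors thus lay below every control on the days when the sum lay above them. Of the fibroblast list 8 of 11 genes were called higher and 1 lower (Pdgfra) at day 3, beside 24.9% and 20.8% of all genes. At day 6 the counts were 0 and 2 (Pdgfra and Pdgfrb), beside 4.49% and 1.43%. At day 18 they were 5 and 0, beside 5.42% and 2.5%. At day 27 they were 0 and 2 (Dcn and Lum), beside 3.58% and 3.09%. Of the macrophage list 14 of 14 genes were called higher at day 3 and 2 at day 6, beside 24.9% and 4.49% of all genes.

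T and NK cell markers (10 genes) summed to 28.4 to 56.1 in the controls, 270.8 to 468.9 at day 3, 129.6 to 461.4 at day 6, 67.5 to 175.4 at day 18 and 31.5 to 43.9 at day 27. Of these, 10 of 10 were called higher at day 3 and 8 at day 6, beside 24.9% and 4.49% of all genes. Endothelial markers (8 genes) summed to 49.4 to 115.9 in the controls and to 148.6 to 219.8 at day 3. There 8 of 8 were called higher, beside 24.9% of all genes. On later days the endothelial sum was 85.4 to 165.4.

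The sum of 8 neutrophil markers was 4.27 to 41.4 in the controls, 110.2 to 180.1 at day 3 and 45.1 to 71.2 at day 6. It was 118 to 137 at day 18 and 9.52 to 41.7 at day 27. Retnlg and Camp were at 0 in at least 1 tumour. Csf3r was the largest term at day 3, at 63.24 and 94.9 against 2.315 to 12.43 in the controls. Mpo, Camp and Ltf overlapped the controls at day 3, and the other genes of the list lay above them. At day 18 Csf3r was at 16.25 and 10.85, and S100a9 and S100a8 were the largest terms. Of the list 4 of 8 genes were called higher at day 3 and 3 at day 18, beside 24.9% and 5.42% of all genes. Adipocyte markers (7 genes) summed to 23.5 to 68.9 in the controls and to 2525 and 2639 at day 18, and at most 135 elsewhere; Adipoq, Plin1 and Cidec were at 0 in at least 1 tumour. Ptprc, the pan-leukocyte marker, was at 6.01 to 29.2 in the controls and 120.5 and 182.8 at day 3. Mast cell markers (6 genes) summed to 141 to 627 in the controls and 9.79 to 45.4 at day 27. Skeletal muscle markers (8 genes) ran from 49.2 to 1815 between the day 18 tumours. The part of these cells in the changes below was not tested.

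**Figure D2:**
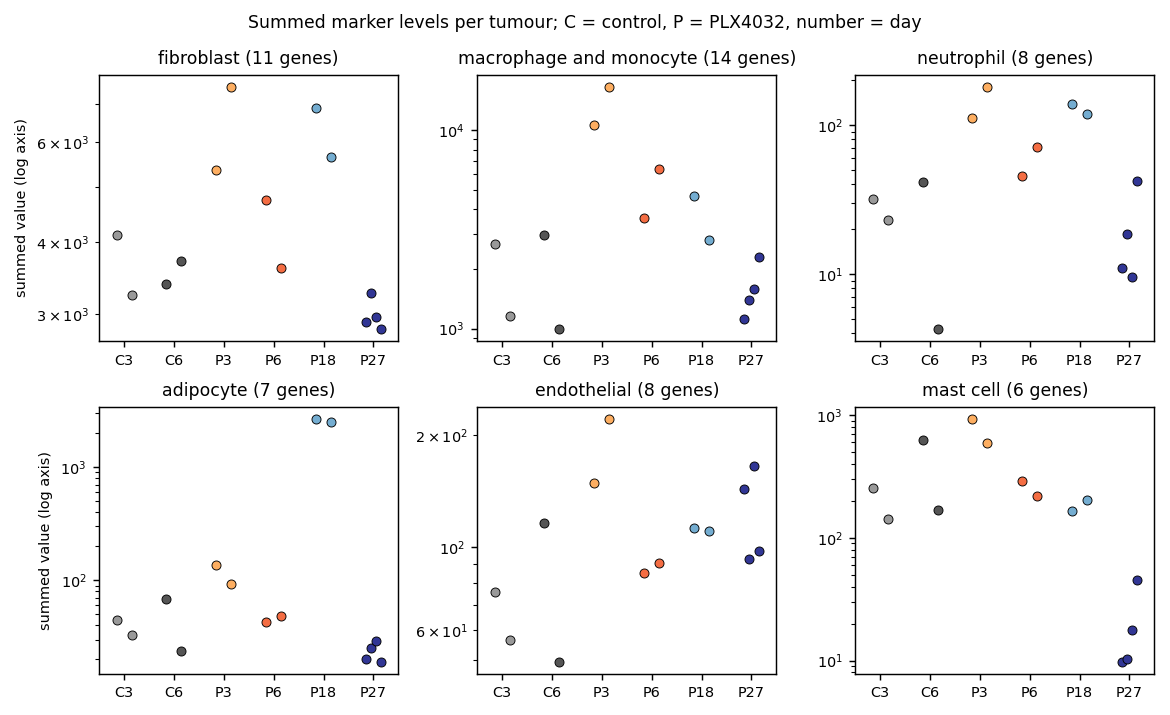
Points are the summed deposited values of 6 marker lists in each tumour on a log axis, for controls (C) and PLX4032 (P) at the day given. Fibroblast sums lie above all controls at days 3 and 18, adipocyte sums stand out at day 18 (2525 and 2639), and mast cell sums are lowest at day 27.

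Among the inhibitors, Timp1, a secreted inhibitor of most soluble MMPs, fell early under PLX4032 and was back within the control range later, while Timp2 fell late. Timp1 was at 329.5, 703, 265 and 459.6 in the controls and 119 and 189.9 at day 3. Timp1 was then at 242 and 306 at day 6, 497 and 551 at day 18, and 418, 521, 525 and 365 at day 27. Both day 3 tumours lay below every control, and the day 18 and 27 tumours lay within the controls' range. It fell by 1.44 ± 0.32 (SE, adjusted p = 0.004) at day 3 and was 1.26 ± 0.24 (SE, adjusted p = 0.0028) higher in late than in early treated tumours, without overlap. Without day 3 tumour 1 the day 3 fall missed the threshold (adjusted p = 0.0539), and the late rise was called in every setting run.

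Timp2, which blocks MMPs and also helps MMP14 to activate MMP2, was at 354, 403, 449 and 459 in the controls and 486 and 419 at day 3. Timp2 was then at 367 and 286 at day 6, 281 and 283 at day 18, and 217, 239, 285 and 258 at day 27. All tumours of days 18 and 27 lay below all controls. It fell by 0.55 ± 0.13 (SE, adjusted p = 0.029) at day 18, by 0.73 ± 0.11 (SE, adjusted p = 0.0043) at day 27 and by 0.53 ± 0.10 (SE, adjusted p = 0.0023) late against early. The day 27 and late falls were called in every setting run, and the day 18 fall was lost with adjusted p = 0.0847 without control 2 of day 3, 0.0679 without control 2 of day 6, 0.168 without day 18 tumour 1 and 0.123 without day 18 tumour 2, and with 0.0604 in the fit on the compared groups alone. Timp3, a matrix-bound inhibitor of MMPs, ADAMs and ADAMTSs, was at 96.3, 44.1, 164 and 127 in the controls and 146 and 86.2 at day 3. Timp3 was then at 126 and 82.7 at day 6, 75.9 and 57.4 at day 18, and 98.8, 95.4, 107 and 86.4 at day 27. Its controls alone spanned 44.1 to 164 and it was not called in any comparison (0.21 at day 3, -0.55 at day 18). Exons of Timp3 overlap a gene on the opposite strand, and Timp1 lies within Syn1 on the opposite strand. Since the use of strand in counting is not known, such reads cannot be assigned with certainty.

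**Figure D3:**
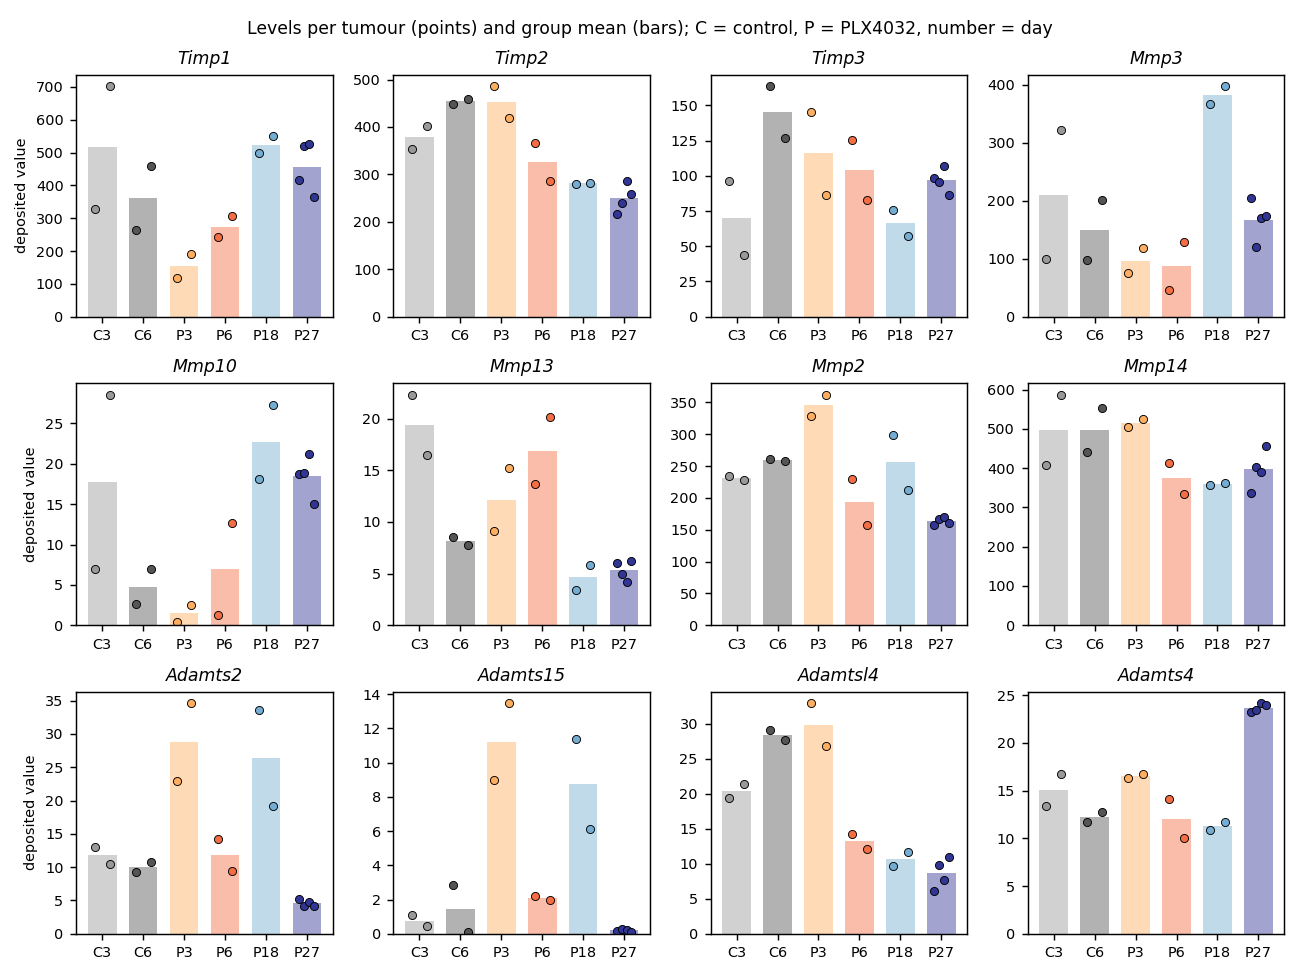
Deposited values of 12 genes in each tumour (points) and the group means (bars, from 0), for controls (C) and PLX4032 (P) at the day given. Timp1 is lowest at day 3, Timp2 and Adamtsl4 are low at days 18 and 27, Adamts2 and Adamts15 are high at days 3 and 18, and Adamts4 is high at day 27.

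The most abundant MMPs were Mmp14, Mmp2 and Mmp3, which held 81.2% to 88.8% of the summed value of the Mmp rows in each tumour. Mmp14, the membrane-type protease MT1-MMP that activates MMP2, was at 408, 587, 440.3 and 554 in the controls and 505 and 524 at day 3. Mmp14 was then at 413 and 335 at day 6, 358 and 363 at day 18, and 337, 402, 391 and 457 at day 27. The day 3 tumours lay inside the control range and the 2 day 18 tumours just below it, and Mmp14 was not called in any comparison (-0.45 at day 18 and -0.32 at day 27). Mmp2, gelatinase A, was at 234, 228, 261 and 258 in the controls and 329 and 362 at day 3. Mmp2 was then at 229.8 and 157 at day 6, 298 and 213 at day 18, and 157, 166, 169.7 and 160.2 at day 27. Each day 3 tumour lay above every control and all 4 day 27 tumours below every control. Mmp2 rose by 0.50 ± 0.15 (SE, adjusted p = 0.021) at day 3 and fell by 0.58 ± 0.12 (SE, adjusted p = 0.021) at day 27. It was lower late than early by 0.34 ± 0.12 (SE, adjusted p = 0.04).

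These Mmp2 calls are small and rest on few tumours. The day 3 rise was lost with adjusted p = 0.0539 without day 3 tumour 1 and 0.144 without day 3 tumour 2, and with 0.0745 after quantile normalization. The day 27 fall was lost with adjusted p = 0.0512 without control 1 of day 3, 0.0614 without control 2 of day 3, 0.0643 without day 27 tumour 1, 0.0522 without day 27 tumour 2 and 0.0532 without day 27 tumour 4, and with 0.138 to 0.155 with tumours averaged per mouse. The late fall was lost with adjusted p = 0.0516 without control 1 of day 3, 0.0517 without control 2 of day 3, 0.0607 without day 3 tumour 1, 0.121 without day 3 tumour 2, 0.16 without day 6 tumour 1, 0.171 without day 18 tumour 2, 0.0674 without day 27 tumour 1, 0.0567 without day 27 tumour 2 and 0.0582 without day 27 tumour 4, with 0.0624 in the compared groups alone, and with 0.0826 to 0.0863 per mouse. Mmp9, gelatinase B, which neutrophils and macrophages make, was at 31.9, 8.59, 33.2 and 26.1 in the controls and 35.9 and 22.7 at day 3. Mmp9 was then at 26.9 and 24.9 at day 6, 25.8 and 17.4 at day 18, and 51.8, 42.8, 68.7 and 37.0 at day 27. The 4 day 27 tumours lay above every control, but the change of 1.10 ± 0.34 (SE, adjusted p = 0.084) missed the threshold, with 8.59 in day 3 control 2 far below the other controls.

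In sum, the Mmp rows added up to 741.3 to 1285 per tumour and the Timp rows to 675 to 1149, on the deposited per-length scale. The ratio of summed Timp to summed Mmp was 0.882 to 0.947 in the controls. It was 0.711 and 0.566 at day 3, 0.92 and 0.911 at day 6, 0.737 and 0.789 at day 18, and 0.869, 1.01, 1.02 and 0.764 at day 27. Both tumours of days 3 and 18 thus lay below all controls, and the day 27 tumours lay on both sides. The ratio is a description, without a test, and compares transcripts, not active protease.

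Of the tested MMPs, 8 form a cluster on mouse chromosome 9 (GRCm38, 7272514 to 7581885, 309 kb), in the order Mmp13, Mmp12, Mmp1b, Mmp3, Mmp1a, Mmp10, Mmp8 and Mmp27. The 250 bases before the start of 28 of the 41 members were in the RefSeq promoter table for GRCm38.p6 (30 windows). A classical AP-1 site, TGANTCA, which reads the same on both strands, was present in 6 of these 28 genes (21.4%), against 7.82% of 27025 genes and 6.75% of 32851 windows in the table. All 6 lie in the chromosome 9 cluster, so they are not independent of each other, and the difference between the shares was not tested. The first base of the match stood 35 bases before the start in Mmp13, 46 in Mmp3, 63 in Mmp10, 73 in Mmp1a, 93 in Mmp1b and 44 in the second window of Mmp12. Mmp8 and Mmp27 had no match in this window. The PEA3 motif AGGAAG on either strand was found in 10 of the 28 (35.7%), against 32.3% of genes and 29.5% of windows. Where both occur they were searched separately, and matches are letters only.

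The stretches of 120 bases that end at the start of 6 of the cluster's genes are shown so that the genes with and without the match can be read side by side. They come from RefSeq, GRCm38.p6, plus strand, 5′ to 3′, with the AP-1 match in capitals: Mmp13 chr9:7272394-7272513, Mmp3 chr9:7445702-7445821, Mmp1a chr9:7464021-7464140, Mmp10 chr9:7502222-7502341, Mmp8 chr9:7558309-7558428 and Mmp27 chr9:7571276-7571395.
Mmp13: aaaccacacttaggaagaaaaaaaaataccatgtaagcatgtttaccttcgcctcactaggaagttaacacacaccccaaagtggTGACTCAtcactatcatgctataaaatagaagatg
Mmp3: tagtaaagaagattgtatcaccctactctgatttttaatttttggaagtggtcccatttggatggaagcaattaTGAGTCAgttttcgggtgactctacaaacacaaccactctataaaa
Mmp1a: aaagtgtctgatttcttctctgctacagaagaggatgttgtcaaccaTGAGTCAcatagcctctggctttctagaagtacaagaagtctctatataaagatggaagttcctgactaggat
Mmp10: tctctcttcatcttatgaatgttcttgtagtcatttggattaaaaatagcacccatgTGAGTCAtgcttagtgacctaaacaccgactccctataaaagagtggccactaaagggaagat
Mmp8: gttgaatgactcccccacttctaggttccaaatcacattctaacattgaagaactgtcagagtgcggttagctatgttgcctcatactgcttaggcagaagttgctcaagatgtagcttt
Mmp27: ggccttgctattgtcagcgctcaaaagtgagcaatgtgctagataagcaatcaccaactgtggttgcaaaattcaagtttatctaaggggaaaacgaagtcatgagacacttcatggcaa

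The cluster's genes did not move together. Of the 6 with an AP-1 match, 2 were called lower at day 3 (Mmp10 and Mmp1a). Mmp12, Mmp3 and Mmp10 were higher late than early, while Mmp13 fell late. Mmp1b was also called higher late, but passed the filter on low values only through 2 day 27 tumours. Mmp1a was called higher late too, but would not have passed that filter without the late tumours, which limits its day 3 call as well. The 2 without a match, Mmp8 and Mmp27, rose at day 3 and were lower late, but Mmp8 passed the filter only through treated tumours. Whether the match bears on these changes was not tested. Mmp13, collagenase 3, was at 22.3, 16.5, 8.54 and 7.78 in the controls and 9.09 and 15.3 at day 3. Mmp13 was then at 13.7 and 20.1 at day 6, 3.46 and 5.84 at day 18, and 6.06, 4.98, 4.22 and 6.18 at day 27. All tumours of days 18 and 27 lay below every control, but the controls themselves differed, the day 3 pair at 16.5 and 22.3 and the day 6 pair at 7.78 and 8.54. It fell by 1.30 ± 0.25 (SE, adjusted p = 0.013) at day 18, by 1.11 ± 0.21 (SE, adjusted p = 0.012) at day 27 and by 1.35 ± 0.19 (SE, adjusted p = 6.6e-04) late against early. The day 18 fall was lost with adjusted p = 0.15 without day 18 tumour 1 and with 0.077 in the compared groups alone. The day 27 fall was lost with 0.0844 to 0.0926 per mouse, and the late fall was kept in every setting.

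Mmp3, stromelysin 1, which opens other pro-MMPs, was at 98.6, 322, 98.3 and 201 in the controls and 74.7 and 118 at day 3. Mmp3 was then at 46.3 and 129 at day 6, 367 and 397 at day 18, and 205, 120, 169 and 174 at day 27. The day 18 tumours lay above every control and the day 27 tumours within the controls. Late against early it rose by 1.54 ± 0.38 (SE, adjusted p = 0.0093), while no single day was called (day 18 1.26). With day 27 alone against days 3 and 6 the rise was 0.94 and was not called (adjusted p = 0.0843). Mmp10, stromelysin 2, was at 6.94, 28.6, 2.60 and 6.96 in the controls and 0.386 and 2.53 at day 3. Mmp10 was then at 1.29 and 12.6 at day 6, 18.1 and 27.3 at day 18, and 18.7, 18.9, 21.3 and 15.1 at day 27. The 2 day 3 tumours lay below every control and every late tumour above every early one. It fell by 2.03 ± 0.70 (SE, adjusted p = 0.035) at day 3 and rose by 2.59 ± 0.54 (SE, adjusted p = 0.0039) late against early, the latter in every setting run. The day 3 fall was lost with adjusted p = 0.098 without control 2 of day 3, 0.0912 without control 2 of day 6 and 0.261 without day 3 tumour 1, and with 0.0605 to 0.0782 at a pseudocount of 5, in the compared groups alone and per mouse.

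Mmp1a, a mouse counterpart of interstitial collagenase, was at 0.909, 2.77, 0.273 and 0.601 in the controls and 0.0249 and 0.144 at day 3. Mmp1a was then at 0.196 and 0.476 at day 6, 0.824 and 1.76 at day 18, and 1.75, 1.89, 1.40 and 1.67 at day 27. It was low throughout, with both day 3 tumours below every control. Mmp1a reached 1 only in control 2 of day 3, day 18 tumour 2 and the day 27 tumours. Without the late tumours it would not have passed the filter on low values. The fit, a description here, gave a fall of 0.85 ± 0.26 (SE, adjusted p = 0.021) at day 3. Late against early it gave a rise of 1.03 ± 0.20 (SE, adjusted p = 0.0028). The fall was lost with adjusted p = 0.0547 without control 2 of day 6, 0.113 without day 3 tumour 1 and 0.0739 without day 3 tumour 2, with 0.0517 at a pseudocount of 5 and with 0.0868 in the compared groups alone. Mmp1b was at 0.0361 and 0.167 at day 3, 0.0630 and 0.498 at day 6, 0.894 and 0.578 at day 18 and 1.15, 0.675, 1.09 and 0.507 at day 27, with 0.293, 0.646, 0.158 and 0.301 in the controls. It reached 1 only in 2 tumours of day 27, so it was tested only through the late group, and the fitted late difference of 0.60 ± 0.16 (SE, adjusted p = 0.012) is a description. Mmp1a and Mmp1b are paralogues, and Mmp12 and Mmp1b overlap on opposite strands, so how reads were split among them is uncertain. Mmp1a is annotated in GENCODE as a polymorphic pseudogene.

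Mmp12, the macrophage elastase, was at 11.8, 15.1, 2.62 and 11.1 in the controls and 8.28 and 20.2 at day 3. Mmp12 was then at 2.65 and 4.35 at day 6, 12.9 and 24.4 at day 18, and 11.4, 22.8, 12.01 and 12.4 at day 27. On each treated day the values overlapped those of the controls. It rose by 1.10 ± 0.38 (SE, adjusted p = 0.039) late against early, where day 6 (2.65 and 4.35) was lower than every late tumour and day 3 (8.28 and 20.2) overlapped them. The summed macrophage markers were 10580 to 16610 at day 3, 3619 to 6362 at day 6, 2806 to 4650 at day 18 and 1116 to 2282 at day 27, with days 6 and 18 overlapping. This call was lost with adjusted p = 0.15 without day 3 tumour 1, 0.115 without day 6 tumour 1, 0.0582 without day 6 tumour 2, 0.143 without day 18 tumour 2, 0.0611 without day 27 tumour 2 and 0.0521 without day 27 tumour 3, with 0.0723 to 0.0742 per mouse and with 0.0791 when day 27 alone was set against days 3 and 6. 

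Mmp8, the neutrophil collagenase, was at 0.489, 0.306, 0.178 and 0.113 in the controls and 0.994 and 2.51 at day 3. Mmp8 was then at 0.283 and 1.10 at day 6, 1.01 and 1.02 at day 18, and 0.0639, 0.0844, 0.0438 and 0.163 at day 27. The pair of day 3 tumours lay above every control, where the summed neutrophil markers were 110.2 and 180.1 against at most 41.4 in the controls. Csf3r was the largest term of that sum, and the part of neutrophils was not tested. No control reached 1, so Mmp8 passed the filter on low values only through treated tumours. The fit, a description here, gave a rise of 1.07 ± 0.23 (SE, adjusted p = 0.0038) at day 3. Late against early it gave a fall of 0.49 ± 0.18 (SE, adjusted p = 0.047). From day 18 to day 27 the fall was 0.89 ± 0.23 (SE, adjusted p = 0.038). The day 3 rise was lost without day 3 tumour 2 (adjusted p = 0.0657). The late fall was lost without any 1 tumour other than day 3 tumour 1 and day 6 tumour 1 (adjusted p = 0.0551 to 0.196), and with 0.063 at a pseudocount of 5, 0.0888 after quantile normalization, 0.0673 in the compared groups alone and 0.0951 to 0.0992 per mouse. The fall from day 18 to day 27 was lost with adjusted p = 0.196 without day 18 tumour 1, 0.149 without day 18 tumour 2, 0.0788 without day 27 tumour 1, 0.0807 without day 27 tumour 2, 0.0564 without day 27 tumour 3 and 0.0626 without day 27 tumour 4, with 0.0882 at a pseudocount of 5 and with 0.128 to 0.148 per mouse. Mmp27, a less studied secreted MMP, was at 1.03, 0.125, 1.26 and 0.270 in the controls and 4.78 and 5.23 at day 3. Mmp27 was then at 0.641 and 1.06 at day 6, 1.54 and 1.19 at day 18, and 0.129, 0.184, 0.0666 and 0.270 at day 27. The day 3 tumours lay far above every control, and the day 27 tumours overlapped the controls. It rose by 1.91 ± 0.26 (SE, adjusted p = 3.8e-04) at day 3 in every setting run, fell by 1.01 ± 0.20 (SE, adjusted p = 0.0032) late against early and by 1.02 ± 0.26 (SE, adjusted p = 0.035) from day 18 to day 27. The last fall was lost with adjusted p = 0.235 without day 18 tumour 1, 0.11 without day 18 tumour 2, 0.0727 without day 27 tumour 1, 0.0724 without day 27 tumour 2, 0.0549 without day 27 tumour 3 and 0.057 without day 27 tumour 4 and with 0.122 to 0.142 per mouse.

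**Figure D4:**
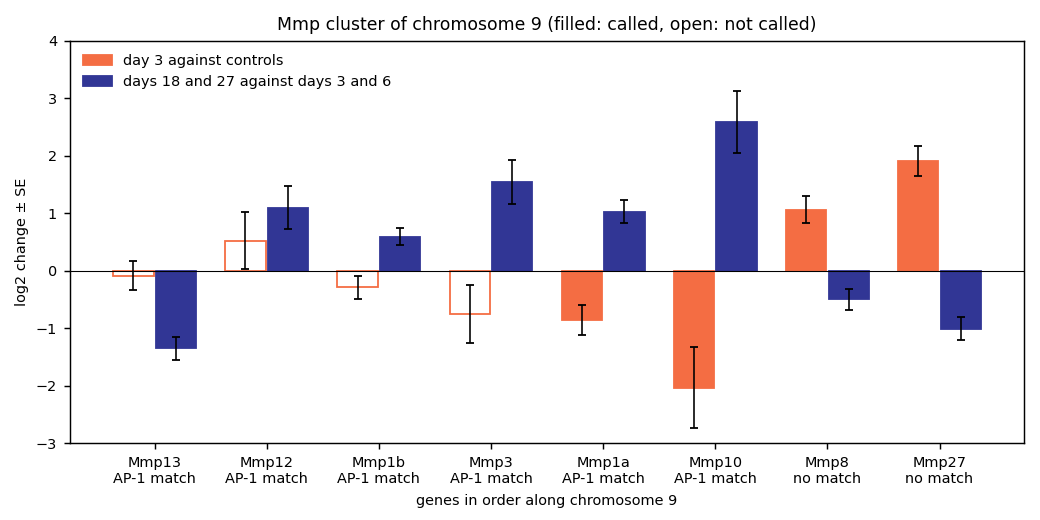
Bars are log2 changes ± SE of the 8 cluster genes in chromosome order, at day 3 against the controls (orange) and in days 18 and 27 against days 3 and 6 (blue); filled bars passed the threshold. Mmp10 has a fall of 2.03 and a late rise of 2.59, while Mmp8 and Mmp27 go up at day 3 and down late.

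Outside the cluster, Mmp25 and Mmp23, both anchored to the membrane, had the highest rises of the MMPs at day 3 on the log2(value + 1) scale. The order depends on that scale: over the settings run the rise of Mmp27 reached 3.09 and that of Mmp23 2.527. Mmp25, a GPI-anchored MMP of leukocytes, was at 1.16, 0.603, 1.90 and 0.278 in the controls and 7.25 and 10.5 at day 3. Mmp25 was then at 2.56 and 5.39 at day 6, 3.52 and 1.82 at day 18, and 0.254, 0.696, 0.508 and 0.857 at day 27. Every tumour of days 3 and 6 lay above every control. It rose by 2.36 ± 0.36 (SE, adjusted p = 6.0e-04) at day 3 and fell by 1.53 ± 0.27 (SE, adjusted p = 0.0019) late against early, both in every setting run, with 1.33 ± 0.36 (SE, adjusted p = 0.053) at day 6 missing the threshold. Mmp23, a membrane-anchored MMP that lacks the hemopexin domain, was at 7.64, 3.49, 2.82 and 0.994 in the controls and 11.0 and 22.9 at day 3. Mmp23 was then at 4.60 and 4.38 at day 6, 15.7 and 10.4 at day 18, and 2.20, 3.01, 1.57 and 1.68 at day 27. Tumours of days 3 and 18 lay above every control, and day 27 overlapped them. It rose by 2.03 ± 0.37 (SE, adjusted p = 0.0014) at day 3 and by 1.73 ± 0.37 (SE, adjusted p = 0.019) at day 18 and fell by 2.17 ± 0.37 (SE, adjusted p = 0.005) from day 18 to day 27. The day 3 rise was kept in every setting. The day 18 rise was lost with adjusted p = 0.0564 without control 2 of day 3, 0.178 without day 18 tumour 1 and 0.0605 without day 18 tumour 2 and with 0.107 in the compared groups alone. The fall from day 18 to day 27 was lost without day 18 tumour 1 (adjusted p = 0.0666). 

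The other tested MMPs were not called on any day or late against early: Mmp11, Mmp15, Mmp16, Mmp19 and Mmp28. Their day 3 changes ran from -0.37 (Mmp16) to 0.81 (Mmp19). Mmp19 was at 19.5 and 76.2 in the 2 day 3 tumours, so its change rests on 1 of them.

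Among the ADAMTS proteases, those that cut versican and aggrecan did not share a direction. Adamts15 was at 1.11, 0.434, 2.83 and 0.112 in the controls and 8.98 and 13.5 at day 3. Adamts15 was then at 2.19 and 1.96 at day 6, 11.4 and 6.15 at day 18, and 0.182, 0.269, 0.239 and 0.119 at day 27. All tumours of days 3 and 18 lay above every control, and those of day 6 lay within the controls' range. It rose by 2.67 ± 0.41 (SE, adjusted p = 6.3e-04) at day 3 and by 2.31 ± 0.41 (SE, adjusted p = 0.0082) at day 18, and from day 18 to day 27 it fell by 2.97 ± 0.41 (SE, adjusted p = 0.0014). The day 3 rise and this last fall were kept in every setting. The day 18 rise was lost without day 18 tumour 1 (adjusted p = 0.102) and in the compared groups alone (0.112). Late against early it fell by 0.85 ± 0.31 (SE, adjusted p = 0.049), a call lost with adjusted p = 0.0551 without control 1 of day 3, 0.0551 without control 2 of day 3, 0.0586 without day 3 tumour 1, 0.156 without day 3 tumour 2, 0.108 without day 6 tumour 1, 0.0997 without day 6 tumour 2, 0.178 without day 18 tumour 2, 0.0745 without day 27 tumour 1, 0.0673 without day 27 tumour 2, 0.0709 without day 27 tumour 3 and 0.0725 without day 27 tumour 4, and under 9 further settings that include pseudocounts of 0.1 and 5.

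Adamts5, the main aggrecanase of cartilage, was at 3.88, 2.78, 6.82 and 4.55 in the controls and 9.80 and 9.24 at day 3. Adamts5 was then at 6.89 and 4.30 at day 6, 8.15 and 6.96 at day 18, and 3.82, 3.72, 3.88 and 3.35 at day 27. Both day 3 tumours lay above every control. It rose by 0.98 ± 0.19 (SE, adjusted p = 0.0021) at day 3 in every setting, was at 0.68 ± 0.19 (SE, adjusted p = 0.055) at day 18, and fell by 0.87 ± 0.19 (SE, adjusted p = 0.02) from day 18 to day 27. That last fall was lost with adjusted p = 0.176 without day 18 tumour 1 and 0.0748 without day 18 tumour 2 and with 0.0875 to 0.103 per mouse. Adamts8 was at 0.362, 0.161, 0.490 and 0.365 in the controls and 0.277 and 0.381 at day 3. Adamts8 was then at 0.551 and 0.472 at day 6, 2.03 and 1.10 at day 18, and 0.608, 0.639, 0.868 and 0.700 at day 27. It was low in all tumours and reached 1 only in the 2 of day 18, so it was tested only through the group in which it was high. The fit, a description here, gave 0.91 ± 0.16 (SE, adjusted p = 0.0081) at day 18 and 0.55 ± 0.12 (SE, adjusted p = 0.0057) late against early, and with day 27 alone against days 3 and 6 the late call was lost (adjusted p = 0.124). The day 18 call was lost without day 18 tumour 1 (adjusted p = 0.0928) and in the compared groups alone (0.103).

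Adamts4, aggrecanase-1, was at 13.4, 16.7, 11.7 and 12.7 in the controls and 16.3 and 16.7 at day 3. Adamts4 was then at 14.1 and 10.02 at day 6, 10.9 and 11.7 at day 18, and 23.2, 23.5, 24.2 and 23.9 at day 27. The 4 day 27 tumours lay above all others. It rose by 0.77 ± 0.11 (SE, adjusted p = 0.0038) at day 27 and by 1.01 ± 0.13 (SE, adjusted p = 9.3e-04) from day 18 to day 27, the latter in every setting, and the day 27 rise was kept in all settings except 1 of the 3 pairings of tumours (adjusted p = 0.053). Adamts1, a protease of versican that is often induced in stressed tissue, was at 63.4, 80.1, 120.1 and 93.2 in the controls and 102 and 57.6 at day 3. Adamts1 was then at 86.6 and 64.4 at day 6, 55.2 and 50.4 at day 18, and 48.0, 56.2, 46.5 and 64.7 at day 27. Both day 18 tumours lay below every control and so did 3 of the 4 day 27 tumours. The changes of -0.71 ± 0.23 (SE, adjusted p = 0.077) at day 18 and -0.69 ± 0.19 (SE, adjusted p = 0.051) at day 27 missed the threshold, and late against early it fell by 0.50 ± 0.17 (SE, adjusted p = 0.039). That call was lost with adjusted p = 0.157 without day 3 tumour 1, 0.137 without day 6 tumour 1, 0.0698 without day 18 tumour 1, 0.11 without day 18 tumour 2, 0.0672 without day 27 tumour 1, 0.0531 without day 27 tumour 2 and 0.0657 without day 27 tumour 3, and with 0.0592 to 0.0767 after quantile normalization or per mouse. Adamts9, the most conserved of these proteases, was at 7.38, 8.16, 8.94 and 8.22 in the controls and 6.36 and 6.29 at day 3. Adamts9 was then at 7.43 and 7.04 at day 6, 7.45 and 6.50 at day 18, and 7.66, 7.23, 7.79 and 7.76 at day 27. The fall by 0.32 ± 0.10 (SE, adjusted p = 0.026) at day 3 is small, and it was lost with adjusted p = 0.0704 without control 2 of day 3, 0.0593 without control 1 of day 6, 0.0936 without day 3 tumour 1 and 0.119 without day 3 tumour 2, with 0.113 in the compared groups alone and with 0.109 against controls of day 3. Exons of Adamts4, Adamts8 and Adamts9 overlap genes on the opposite strand.

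Of the procollagen N-proteinases, Adamts2 fell below the controls and Adamts14 rose above them at day 27. Adamts2 was at 13.1, 10.4, 9.28 and 10.8 in the controls and 22.9 and 34.6 at day 3. Adamts2 was then at 14.2 and 9.44 at day 6, 33.6 and 19.2 at day 18, and 5.18, 4.16, 4.79 and 4.15 at day 27. The tumours of days 3 and 18 lay above every control and those of day 27 below every control. It rose by 1.31 ± 0.24 (SE, adjusted p = 0.0015) at day 3 and by 1.16 ± 0.24 (SE, adjusted p = 0.018) at day 18, and fell by 1.09 ± 0.20 (SE, adjusted p = 0.011) at day 27. It fell by 2.25 ± 0.24 (SE, adjusted p = 2.7e-04) between days 18 and 27. The summed fibroblast markers were also higher at days 3 and 18 (5357 to 7494 and 5653 to 6875) than at day 27 (2824 to 3265), while Pdgfra was lower (115.6 and 86.1, and 97.3 and 92.7, against 119.1 to 152.8), and the part of fibroblasts was not tested. Late against early it fell by 0.66 ± 0.18 (SE, adjusted p = 0.016), lost with adjusted p = 0.0719 without day 3 tumour 2, 0.0634 without day 6 tumour 1 and 0.0702 without day 18 tumour 2. The day 3 rise and the fall from day 18 to day 27 were called in every setting. The day 18 rise was lost with adjusted p = 0.0569 without control 2 of day 3 and 0.193 without day 18 tumour 1 and with 0.0947 in the compared groups alone. The day 27 fall was lost with 0.0867 to 0.103 per mouse.

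Adamts14 was at 58.5, 69.6, 83.3 and 63.3 in the controls and 50.6 and 47.6 at day 3. Adamts14 was then at 81.9 and 81.2 at day 6, 55.3 and 78.2 at day 18, and 92.6, 104, 97.6 and 103 at day 27. The day 27 tumours lay above all other tumours. It fell by 0.46 ± 0.14 (SE, adjusted p = 0.022) at day 3, rose by 0.54 ± 0.12 (SE, adjusted p = 0.023) at day 27 and rose by 0.35 ± 0.11 (SE, adjusted p = 0.028) late against early. The day 3 fall was lost with adjusted p = 0.064 without control 2 of day 3, 0.0548 without control 1 of day 6, 0.067 without day 3 tumour 1 and 0.132 without day 3 tumour 2, with 0.0594 in the compared groups alone and with 0.0965 against controls of day 3. The day 27 rise was lost with adjusted p = 0.0655 without control 1 of day 3, 0.0634 without control 2 of day 6, 0.0654 without day 27 tumour 2 and 0.0613 without day 27 tumour 4 and with 0.138 to 0.16 per mouse. The late rise was lost with adjusted p = 0.0526 without day 3 tumour 1, 0.084 without day 3 tumour 2, 0.0616 without day 6 tumour 1, 0.0734 without day 6 tumour 2 and 0.121 without day 18 tumour 2 and with 0.0595 to 0.0652 per mouse.

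Adamts7 and Adamts12, which cut cartilage oligomeric matrix protein, went up late. Adamts7 was at 30.9, 59.4, 30.5 and 47.5 in the controls and 23.9 and 18.0 at day 3. Adamts7 was then at 30.6 and 30.7 at day 6, 36.5 and 44.6 at day 18, and 51.4, 75.8, 49.6 and 54.6 at day 27. At day 3 both tumours lay below every control. It fell by 0.93 ± 0.27 (SE, adjusted p = 0.016) at day 3 and rose by 0.90 ± 0.20 (SE, adjusted p = 0.006) late against early in every setting. The day 3 fall was lost without day 3 tumour 2 (adjusted p = 0.143) and in the compared groups alone (0.0803), and Adamts7 exons overlap Tbc1d2b. Adamts12 was at 3.10, 2.49, 3.08 and 4.87 in the controls and 2.79 and 3.21 at day 3. Adamts12 was then at 2.66 and 1.76 at day 6, 3.30 and 3.34 at day 18, and 4.15, 4.37, 4.79 and 5.56 at day 27 and rose by 0.48 ± 0.14 (SE, adjusted p = 0.02) late against early, lost with adjusted p = 0.0632 without day 3 tumour 1, 0.0873 without day 6 tumour 2 and 0.0567 without day 18 tumour 2. Adamts10, which binds microfibrils, ran from 26.7 to 41.9 and was not called.

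The ADAMTS-like genes also split. Adamtsl4, which binds fibrillin microfibrils, was at 19.5, 21.3, 29.1 and 27.7 in the controls and 32.9 and 26.8 at day 3. Adamtsl4 was then at 14.3 and 12.1 at day 6, 9.75 and 11.6 at day 18, and 6.14, 9.86, 7.69 and 11.0 at day 27. All tumours from day 6 on lay below all controls. It fell by 0.82 ± 0.19 (SE, adjusted p = 0.037) at day 6, by 1.10 ± 0.19 (SE, adjusted p = 0.0076) at day 18, by 1.40 ± 0.16 (SE, adjusted p = 0.002) at day 27 and by 0.99 ± 0.15 (SE, adjusted p = 7.9e-04) late against early. The last 2 were kept in every setting run. The day 18 fall was lost without day 18 tumour 1 (adjusted p = 0.0884). The day 6 fall was lost with adjusted p = 0.108 without control 2 of day 3, 0.0875 without control 2 of day 6, 0.49 without day 6 tumour 2, 0.0567 without day 27 tumour 1, 0.0574 without day 27 tumour 2, 0.0559 without day 27 tumour 3 and 0.0501 without day 27 tumour 4, with 0.062 against the day 6 controls, with 0.273 in the compared groups alone and with 0.0635 to 0.079 per mouse or with sample weights. 

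Adamtsl1 was at 0.531, 0.544, 0.709 and 0.306 in the controls and 1.81 and 2.86 at day 3. Adamtsl1 was then at 1.17 and 0.895 at day 6, 3.64 and 1.97 at day 18, and 0.222, 0.0464, 0.301 and 0.211 at day 27. No control reached 1, so Adamtsl1 passed the filter on low values only through treated tumours. The fit, a description here, gave a rise of 1.12 ± 0.21 (SE, adjusted p = 0.0016) at day 3. At day 18 the rise was 1.29 ± 0.21 (SE, adjusted p = 0.005). From day 18 to day 27 there was a fall of 1.64 ± 0.21 (SE, adjusted p = 8.0e-04). The first and last were kept in every setting. The day 18 rise was lost without day 18 tumour 1 (adjusted p = 0.063) and in the compared groups alone (0.0806). Adamtsl3 was at 4.80, 1.80, 2.03 and 2.78 in the controls and 0.599 and 0.631 at day 3. Adamtsl3 was then at 1.58 and 1.82 at day 6, 1.75 and 2.37 at day 18, and 3.23, 3.17, 2.87 and 3.19 at day 27. Both day 3 tumours lay below every other tumour. It fell by 1.19 ± 0.24 (SE, adjusted p = 0.0024) at day 3 and rose by 0.76 ± 0.18 (SE, adjusted p = 0.0078) late against early, both in every setting. Adamtsl5 was at 13.8, 11.7, 23.4 and 13.7 in the controls and 24.9 and 28.7 at day 3. Adamtsl5 was then at 22.0 and 17.4 at day 6, 11.3 and 15.1 at day 18, and 17.7, 17.0, 12.5 and 16.7 at day 27. It rose by 0.78 ± 0.21 (SE, adjusted p = 0.012) at day 3 and fell by 0.63 ± 0.16 (SE, adjusted p = 0.011) late against early. The rise was lost without day 3 tumour 2 (adjusted p = 0.103) and in the compared groups alone (0.0525).

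**Figure D5:**
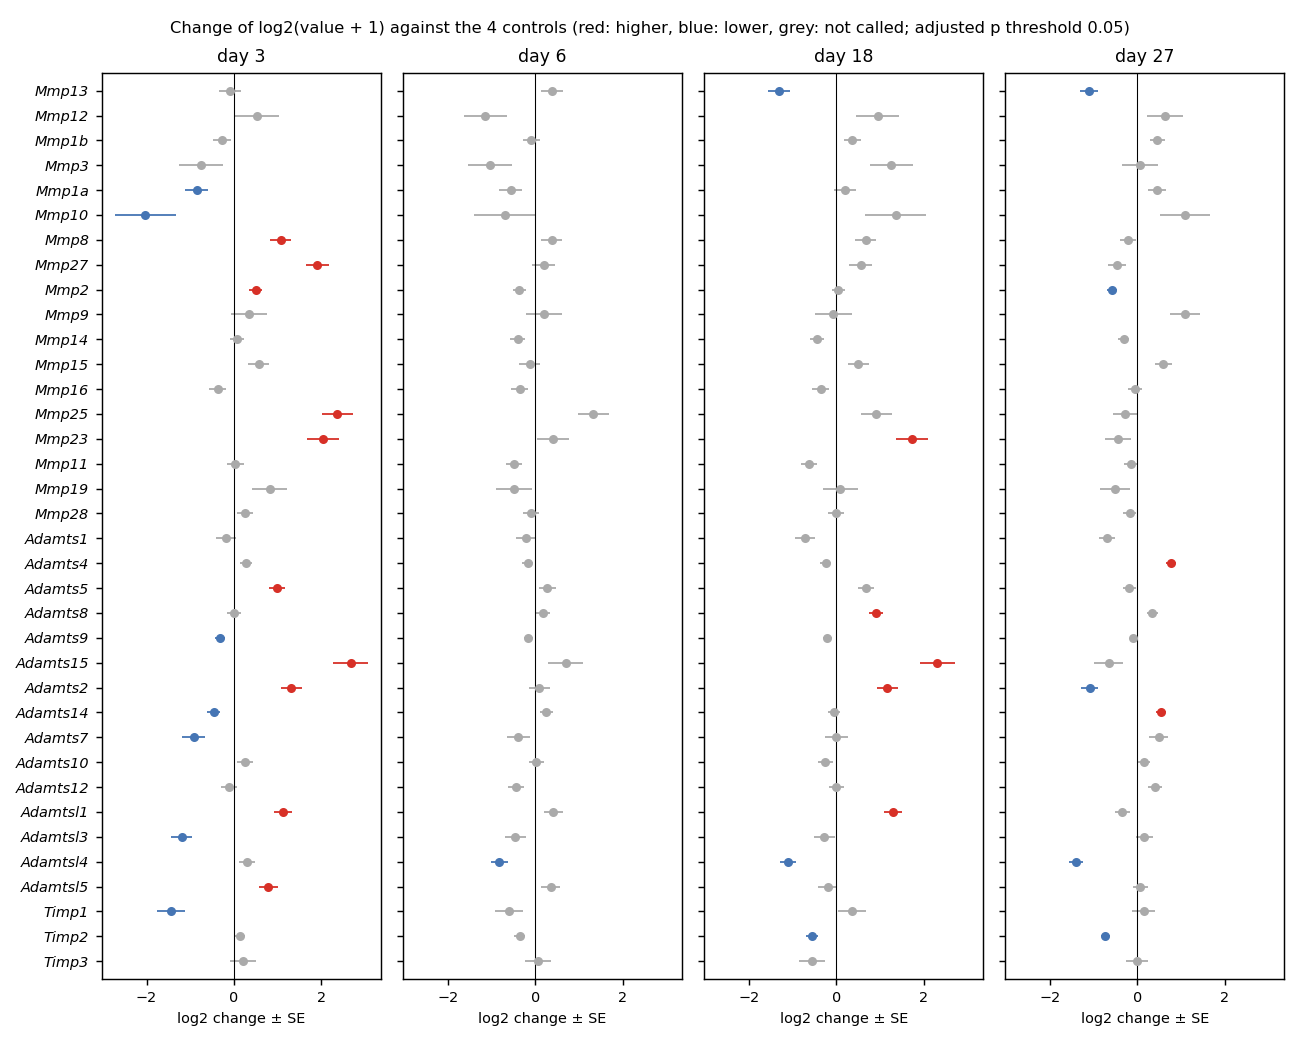
Points are log2 changes ± SE of the 36 genes against the 4 controls on each treated day; red is called higher, blue called lower and grey not called. Of the points, 17 are coloured at day 3, 1 at day 6, 8 at day 18 and 7 at day 27.

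The 5 genes below the level for testing were listed with low values in nearly all tumours. Adamts16 ran from 0.0351 to 1.16, Adamts17 from 0.00731 to 1.02, Adamts18 from 0.107 to 0.417, Adamtsl2 from 0.142 to 2.27, and Mmp17 from 0.0929 to 0.462. Adamts17 and Adamtsl2 were highest in day 18 tumour 1.

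Other genes of pericellular proteolysis were read from lists of names. Of 19 genes of the plasminogen system and its partners, 7 were called higher and 0 lower at day 3, beside 24.9% and 20.8% of all genes (medians 0.33 and 0.02). At day 6, 1 was higher and 1 lower (all genes 4.49% and 1.43%), at day 18 4 and 0 (5.42% and 2.5%), and at day 27 1 and 3 (3.58% and 3.09%). Plau, which encodes urokinase, a protease that makes plasmin, rose by 1.35 ± 0.19 (SE, adjusted p = 0.0026) at day 18 and by 1.62 ± 0.16 (SE, adjusted p = 0.0012) at day 27. A2m, alpha-2-macroglobulin, a broad protease trap, rose by 1.49 ± 0.17 (SE, adjusted p = 1.4e-04) at day 3. Dpp4, a surface dipeptidase, rose by 2.56 ± 0.36 (SE, adjusted p = 4.1e-04) at day 3 and was at -0.32 ± 0.29 (SE, adjusted p = 0.59) at day 27. Lrp1, a receptor that takes up protease-inhibitor complexes, fell at day 27 by 0.67 ± 0.10 (SE, adjusted p = 0.0053). Fap, on this list, is also on the fibroblast list.

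Of 10 tested ADAM proteases, the membrane-bound relatives that shed surface proteins, 6 were called higher and 1 lower at day 3, beside 24.9% and 20.8% of all genes (medians 0.65 and 0.02). None was called at day 6, 2 were higher at day 18 (all genes 5.42%) and 1 at day 27 (all genes 3.58%). Adam33 rose by 1.55 ± 0.24 (SE, adjusted p = 6.4e-04) and Adam23 by 1.27 ± 0.17 (SE, adjusted p = 3.4e-04) at day 3. Adam17, which sheds TNF, rose by 0.59 ± 0.10 (SE, adjusted p = 8.2e-04) and Adam15 by 0.71 ± 0.12 (SE, adjusted p = 0.0011) at day 3. Of 4 genes of procollagen processing, 1 was called higher at day 3, beside 24.9% of all genes, so that count says nothing particular about the list. At day 6, 1 was called lower (all genes 1.43%), and none was called at day 18. At day 27, 1 was higher and 2 lower (all genes 3.58% and 3.09%). Pcolce, an enhancer of the C-proteinase, fell by 0.71 ± 0.10 (SE, adjusted p = 0.0044) at day 27 and Pcolce2 by 1.56 ± 0.27 (SE, adjusted p = 0.0084). Tll1, a tolloid protease, rose by 0.54 ± 0.12 (SE, adjusted p = 0.026) at day 27, and Bmp1, the main C-proteinase, was not called on any day.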

How the data were processed

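RNA from whole frozen tumours was extracted with Trizol, and libraries were made with Illumina's TruSeq kit, as the labels' protocols state. For the 14 tumours the authors deposited a single table of signal, with 1 row per symbol. No tool version is stated; the tools kallisto and sleuth, and mm10 as the build, come from the submitters' processing notes. The table is named TPM, but its columns sum to 879385 to 1084401, so the deposited signal is called TPM-like here. How it came to that scale is not stated, nor whether counting used strand. The tests set for TPM were kept for this signal. A value of 0 can be a failed estimate, and depth is unknown. All 14 columns were mapped to groups; column numbers only name tumours. Where nothing in the labels says tumours come from separate animals, p-values measure only the spread between them.

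Symbols were matched to mouse gene names for 17811 of 18481 rows; 104 rows share all values with another row, none of them a member. Loci come from GENCODE M21 on GRCm38, the assembly of mm10, and promoters from RefSeq on GRCm38.p6. Values were used as log2(value + 1) for the 15841 rows with 1 or more in at least 2 tumours. A linear model of 6 group means was fitted with limma 3.58.1 (R 4.3.3), using its variance trend and leaving 8 residual degrees of freedom. Tests were 2-sided, p-values were adjusted by Benjamini-Hochberg over every gene tested, and the threshold was 0.05. The steps were tested on simulated data.

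Members and gene lists were chosen with earlier results of these data known. Named with values are Mmp2, Mmp3, Mmp9, Mmp13, Mmp14, Adamts1, the Timps and every member called on a treated day or late against early, and of other lists up to 4 genes with the smallest p. Alternatives were pseudocounts of 0.1 and 5, filters at 5 and none, median-of-ratios and quantile scaling, no variance trend, sample weights, the compared groups alone, controls of the same day, day 27 averaged per mouse, and leaving out each tumour. Day 27 alone against days 3 and 6 was chosen after seeing the data.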

Additional observations from a re-analysis of the deposited data

Results flagged for a closer look

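In 4 of 72 groups of 4 tumours that were checked (the 4 controls and the 4 tumours of day 27, for each tested gene), 1 tumour lay far from the other 3; chance flags about 1 in 20 such groups. Mmp19 was at 31.6 in day 3 control 2 and at 18.5 to 19.4 in the other controls. Mmp12 was at 22.8 in day 27 tumour 2 and at 11.4 to 12.4 in the others. Adamtsl3 was at 2.86 in day 27 tumour 3 against 3.17 to 3.23, and Adamtsl5 at 12.5 in the same tumour against 16.7 to 17.7.

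The effect of PLX4032, each day set against the controls of that day, differed between day 6 and day 3 for 5 members by a limma interaction contrast. For Adamtsl4 it was 0.52 at day 3 and -1.05 at day 6, a difference of -1.57 ± 0.31 (SE, adjusted p = 0.013). For Mmp13 it was -0.66 and 0.95, a difference of 1.60 ± 0.41 (SE, adjusted p = 0.038); here the control pairs of days 3 and 6 did not overlap (16.5 and 22.3 against 8.54 and 7.78). For Adamts5 it was 1.29 and -0.03 (difference -1.32 ± 0.31 (SE, adjusted p = 0.028)), for Mmp2 0.58 and -0.44 (difference -1.02 ± 0.25 (SE, adjusted p = 0.031)), and for Mmp27 1.99 and 0.12 (difference -1.87 ± 0.43 (SE, adjusted p = 0.024)). Each of the 5 calls was lost in at least 1 setting. In the compared groups alone Adamtsl4 was kept and the other 4 were lost (adjusted p = 0.0806 to 0.128). Without day 6 tumour 2 all 5 were lost, with adjusted p = 0.0561 for Adamtsl4, 0.126 for Mmp13, 0.0952 for Adamts5, 0.0898 for Mmp2 and 0.0527 for Mmp27.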

How the results depend on the processing

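Of 71 calls of a member in a comparison, 26 were kept in every setting run and 0 changed sign in any. The counts of called members moved by more than 1.5 times as follows, and the cause was not tested unless the setting itself removes genes or samples. At day 6 the count of 1 became 0 with sample weights, in the compared groups alone, with same-day controls and with day 27 averaged per mouse (3 pairings). At day 18 the count of 8 became 1 in the compared groups alone. At day 27 the count of 7 became 3, 2 and 3 per mouse. Late against early, 22 became 14 with a filter at 5, which tests 27 members, and was 23 with day 27 alone, of which 19 are shared. For day 27 against day 18, 11 became 7 with the filter at 5 and 5 in each pairing per mouse. For the day 6 against day 3 effect, 5 became 3 with sample weights, 1 in the compared groups alone, and 3 and 3 in pairings 1 and 2. Leaving out each tumour in turn gave 10 to 18 at day 3, 0 to 4 at day 6, 1 to 10 at day 18, 5 to 8 at day 27, 14 to 22 late against early, 4 to 11 for day 27 against day 18, 0 to 7 for the day 6 against day 3 effect, and 0 for the controls. Where only 1 tumour of a group remained, its spread was taken from the other groups.

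Over all genes tested, the day 6 count of 937 was 0 in the compared groups alone and 0 to 2145 without 1 tumour, the day 18 count of 1254 was 178 and 370 to 2220, the day 27 count of 1056 was 162 to 250 per mouse and 497 to 1140 without 1 tumour, and the day 3 count of 7249 was 4345 to 7523 without 1 tumour. The controls' count of 0 was at most 31. Day 27 against day 18 gave 1592, with 3209 under sample weights, 472 to 594 per mouse and 552 to 1919 without 1 tumour, and the day 6 against day 3 effect gave 1345, with 669 in the compared groups alone and 574 to 1895 without 1 tumour. Same-day controls at day 6 gave 8 and averaging per mouse 3 to 24. No paired analysis was possible because the column numbers only name tumours. Depth is unknown, so the limit that counting sets on low genes cannot be given.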

Other observations

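Lysosomal proteases and matrix substrates were read from the same table. Of 7 cathepsin-list genes, 6 were called higher and 1 lower at day 3, beside 24.9% and 20.8% of all genes (medians 1.30 and 0.02). None was called at days 6, 18 and 27, and late against early 1 was higher and 4 lower (all genes 20.6% and 19.4%). Ctss, a cathepsin of antigen-presenting cells, rose by 3.07 ± 0.56 (SE, adjusted p = 0.0014) at day 3, Ctsd by 1.55 ± 0.13 (SE, adjusted p = 1.9e-05), Ctsb by 1.30 ± 0.16 (SE, adjusted p = 2.4e-04), and Cst3, which encodes the cysteine protease inhibitor cystatin C, by 1.56 ± 0.20 (SE, adjusted p = 2.7e-04). The macrophage marker sum moved with them (10580 and 16610 at day 3 against at most 2977 in the controls), and its part was not tested. Of 11 tested proteoglycan and microfibril genes, 3 were called higher and 3 lower at day 3, which is near the 24.9% and 20.8% of all genes and says nothing particular about the list. As single genes, Fbn1, fibrillin-1, rose by 0.71 ± 0.15 (SE, adjusted p = 0.0031), while Fbn2 fell by 1.43 ± 0.29 (SE, adjusted p = 0.0023) and Ltbp1, a fibrillin-bound TGF-beta binding protein, by 0.67 ± 0.13 (SE, adjusted p = 0.002). Thbs2, a matricellular protein, fell by 0.84 ± 0.14 (SE, adjusted p = 0.0073) at day 27.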
